A study of Mus musculus with 12 samples.

Results

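The ribosome that works in the cytosol is built from a large and a small subunit, and the genes described here encode its proteins. They were taken from the deposited table by a rule on gene symbols: protein-coding mouse genes named Rpl or Rps followed by a digit, together with Rplp0, Rplp1, Rplp2 and Rpsa, without symbols that mark pseudogenes and without the Rps6k kinases. The rule found 86 genes, of which 85 were in the table of 38293 gene identifiers, 82 were among the 13964 genes with enough counts to be tested, and 1, Rpl24, was not analysed here. The 82 were 42 large-subunit genes, 30 small-subunit genes, the 3 genes of the P stalk (Rplp0, Rplp1 and Rplp2), 6 paralogues (Rpl3l, Rpl7l1, Rpl22l1, Rpl36al, Rps27l and Rps27rt) and Rps19bp1. The last meets the rule by its symbol, but its product is a partner of Rps19 and of the deacetylase Sirt1 and not a part of the ribosome.

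Most ribosomal proteins are needed in equal numbers, and much of their assembly with ribosomal RNA takes place in the nucleolus. Cells adjust the synthesis of these proteins together, under control of the mTOR pathway. This works largely through translation of messages that start with a run of pyrimidines (the 5' terminal oligopyrimidine motif). Subunit proteins that are left over can bind Mdm2 and so stabilise p53. The genes have also given rise to many processed copies, intronless pseudogenes inserted elsewhere in the genome whose sequence can be nearly the same as that of the messenger RNA.

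RNA came from ventricles of mouse embryos at E15.5, with 3 pools of 4 pairs of ventricles in each of 4 genotypes. The Mib1 mutant carried the stop allele Mib1 R530X over a loxP-flanked Mib1 allele with Tnnt2-Cre, a driver active in cardiomyocytes, so that other cells of the ventricle kept the floxed allele. Its Cre control carried 1 floxed and 1 normal allele of Mib1 and the same driver. The triple heterozygote carried Mib1 R530X, Apcdd1 V150I and a missense allele of Asxl3, each on 1 chromosome copy and without Cre; the labels name the Asxl3 allele M1361V in one place and M1415V in another. WT embryos carried none of these alleles. Mib1 encodes a ubiquitin ligase needed in cells that send Notch signals.

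Library totals ran from 10103548 to 22157720 counts. Mib1 checked the labels: it was at 126 to 145 CPM (counts relative to the TMM-scaled library size) in WT, 57.9 to 74.1 in the triple heterozygote, 101 to 108 in the Cre control and 50.1 to 54.8 in the mutant. Summed cardiomyocyte markers reached 41773 to 57168 CPM, and the skeletal muscle regulators Myod1 and Myf5 stayed under 1 CPM. The 7 listed skeletal muscle genes summed to 55.9 to 136 CPM, most of it Acta1, which the embryonic heart expresses too. The 6 listed liver genes summed to 5.29, 23.2 and 2.30 CPM in WT and to 0.580 to 4.81 elsewhere; Apoa1, Ttr and Serpina1a stayed under 1 CPM, while Alb and Afp reached 9.60 and 10.4 in the second WT pool. The first replicates of the Cre control and of the Mib1 mutant had almost no Xist, so these pools held embryos of 1 sex. Tests compared pools, and p-values measure the spread between them. A gene is said to be called when the adjusted p of edgeR's quasi-likelihood test, corrected by Benjamini-Hochberg over all genes tested, was under 0.05.

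The ribosomal protein genes took 2.47% to 3.24% of all counts in a library. The share was 2.47% to 2.73% in WT, 2.90% to 3.24% in the triple heterozygote, 2.65% to 2.98% in the Cre control and 2.53% to 2.98% in the Mib1 mutant. The WT and triple heterozygote ranges did not overlap, while those of the Cre control and the mutant did. These shares are of whole libraries and cannot tell fewer cells of a type from less RNA per cell.

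Compared per length (CPM per kilobase of the main annotated transcript, mean of 12 libraries), Rpl41 (1026), Rplp1 (1003), Rps4x (913), Rpl23a (873) and Rps14 (825) were highest. Rpl41 encodes the shortest protein of the ribosome, and Rplp1 one of the acidic proteins of the stalk that recruits elongation factors. The lowest tested were Rpl3l (0.741), Rps19bp1 (13.9), Rpl12 (38.6), Rpl7l1 (64.5) and Rpl31 (67.7). Among the 75 genes of the subunits and the stalk the ratio of highest to lowest was 26.6, and it was 12.5 once the counts of each gene's processed copies were added. Rpl12 then rose to 330 and Rpl31 to 758 CPM per kilobase, and the lowest was Rps20 (82.0), whose only main transcript in the annotation is 3706 bases long. The middle of this distribution narrowed as well, from 321 to 655 CPM per kilobase between the quartiles without copies to 426 to 675 with them.

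The copies were found by sequence, as annotated pseudogenes with at least 95% identity over at least 60 bases to a transcript of a ribosomal protein gene. There were 425 in the table, they matched 75 of the genes, and together they took 0.408% to 0.533% of all counts. RSEM, which made the table, divides a read that fits several genes between them, and 67% of the values of the ribosomal protein genes were not whole numbers, against 9.64% in the whole table. For 10 genes the copies held more counts than the gene. Copies held 91.1% of the joint count of Rpl31, 88.3% of Rpl12, 76.3% of Rps7, 75.5% of Rpl5 and 64.7% of Rpsa.

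**Figure D1:**
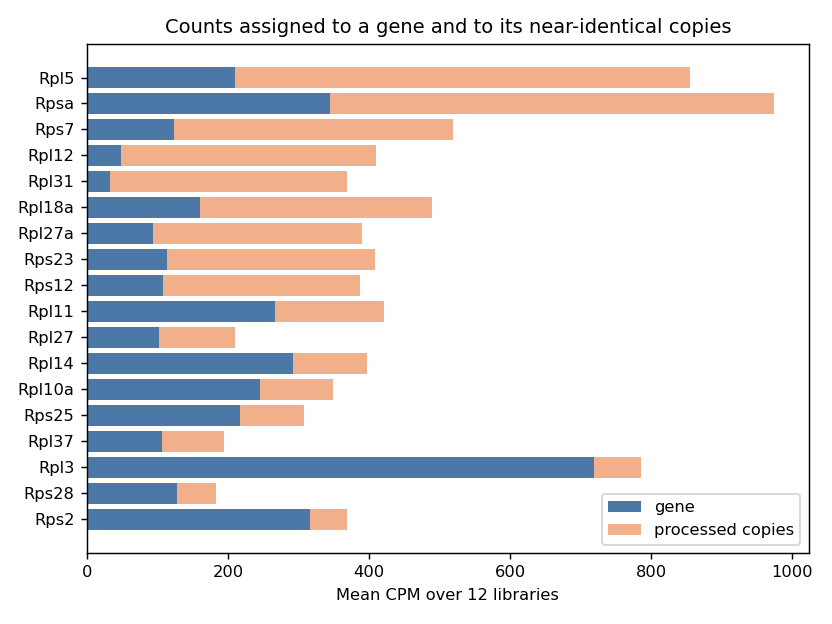
Mean CPM over 12 libraries assigned to 18 ribosomal protein genes (blue) and to their near-identical processed copies (orange), for the genes whose copies held the most counts, in that order from the top. Copies outweigh the gene for the first 9 from the top and for Rpl27, and Rpl3 and Rps2 near the bottom keep most of their counts.

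How far a read can tell a gene from its copy depends on the sequences. The stretches below cover coding bases only, and untranslated bases, which also give reads, are left out. All 60-base stretches of the coding sequence of Rpl5 (835), Rpl12 (439), Rpl10a (595), Rpl15 (556) and Rpl31 (319) also occur in their most abundant copies, Gm15500, Gm10275, Rpl10a-ps1, Rpl15-ps3 and Rpl31-ps8, and 60 bases is the length of the reads. Of the stretches in Rps7, 79.5% occur in Gm6472, and of those in Rpsa, 70.4% occur in Rpsa-ps10. Rpl3 has 2 mismatches to Rpl3-ps1 over 1209 coding bases, and 89.6% of its stretches occur there. Rps2 has 7 mismatches to Rps2-ps13 over 882 coding bases, and 59.5% of its stretches occur there. These last pairs are shown because pools with and without Cre, described next, differed in them. The lines give 40 coding bases from the GENCODE M21 transcripts (GRCm38), counted from the A of the start codon, positions 37 to 76 for Rpl3 and 428 to 467 for Rps2, and capitals mark the mismatches (C57A, C444T and C453A, with the base of the gene first and that of the copy last).
Rpl3: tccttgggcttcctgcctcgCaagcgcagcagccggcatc
Rpl3-ps1: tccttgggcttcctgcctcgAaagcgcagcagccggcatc
Rps2: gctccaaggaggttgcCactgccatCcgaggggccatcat
Rps2-ps13: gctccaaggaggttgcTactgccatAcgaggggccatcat

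Rpl3-ps1 (chrX:13202571-13203780) and Rps2-ps13 (chrX:52898588-52899469) had counts in the mice with Cre and almost none in the others. Every pool with Cre also carried the floxed Mib1 allele, and no other pool did. Cre, the floxed allele and the genetic background of these mice therefore cannot be told apart here. Rpl3-ps1 was at 269, 194 and 55.7 CPM in Cre control pools and 145, 53.9 and 70.0 in the mutant, and at 0 to 0.955 in the 6 WT and triple heterozygote pools. Rps2-ps13 was at 48.7, 72.7 and 109 CPM in Cre control pools and 172, 80.9 and 128 in the mutant, and at 0 in 5 of the other 6 pools and 0.0389 in the remaining one. No pool with Cre overlapped a pool without it for either copy. A count of 3 in a library corresponds to 0.135 to 0.297 CPM, the most that a count of 0 allows, for counting error only. Of the 43 copies tested with the other genes, these 2 were called between the Cre control and WT (edgeR, adjusted p = 5.01e-05 for Rpl3-ps1 and 4.66e-06 for Rps2-ps13).

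The genes themselves ran the other way. Rpl3 (chr15:80077791-80091868), which lies close to the peptidyl transferase centre of the large subunit, was at 750, 776 and 778 CPM in WT and 515, 611 and 760 in the Cre control. Rps2 (chr17:24718116-24721929), a small-subunit protein at the entry of the messenger RNA channel, was at 329, 359 and 347 CPM in WT and 312, 342 and 262 in the Cre control. With all copies added to each gene, the log2 fold change of the Cre control against WT moved from -0.29 to 0.06 for Rpl3 and from -0.18 to 0.15 for Rps2. Rpsa moved in the same way, from -0.23 to 0.12, and its copies held 59.9% to 61.4% of the joint count in WT, 57.2% to 61.7% in the triple heterozygote, 67.1% to 72.9% in the Cre control and 66.8% to 72.5% in the mutant. Neither direction was called for these genes with or without copies (edgeR).

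**Figure D2:**
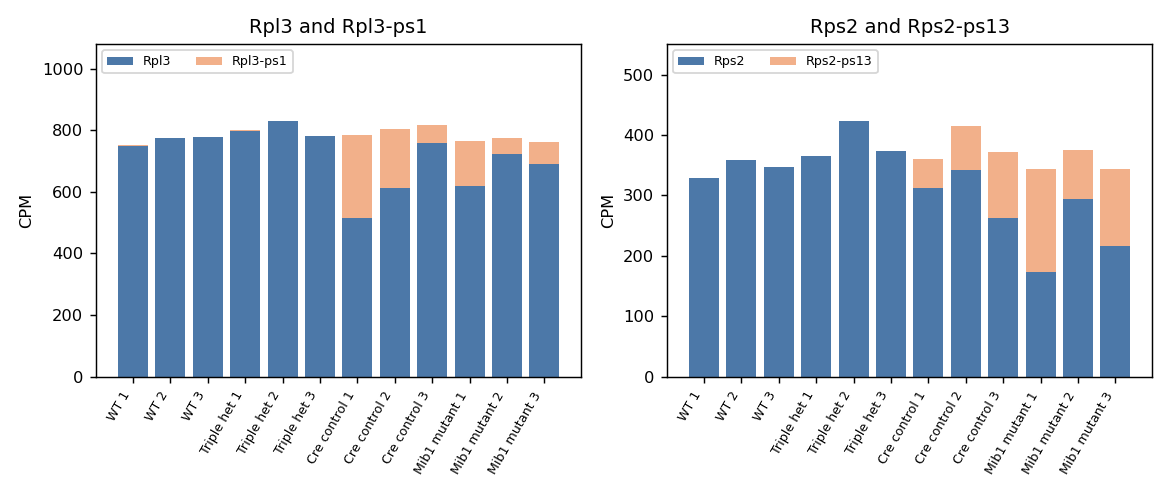
CPM of Rpl3 with Rpl3-ps1 (left) and of Rps2 with Rps2-ps13 (right) in each of the 12 pools, stacked, gene in blue and copy in orange. The orange part is present in all 6 pools of the Cre control and the Mib1 mutant and is at most 0.955 CPM in the 6 WT and triple heterozygote pools.

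Rpl15 (chr14:18267823-18271391), a core protein of the large subunit, and its copy Rpl15-ps3 (chr9:22185607-22186221) were divided differently in WT. Rpl15-ps3 was at 59.4, 42.3 and 79.0 CPM in WT, 2.36, 0 and 0 in the triple heterozygote, 5.03, 0 and 0 in the Cre control and 33.3, 0.00559 and 13.5 in the mutant. WT lay above every other group here, and the copy is identical to the coding sequence of Rpl15 over 615 bases. Rpl10a-ps1 is likewise identical to Rpl10a over 654 coding bases. All copies of Rpl10a held 37.1% to 48.0% of the joint count in WT and 12.7% to 29.9% in the triple heterozygote.

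In the triple heterozygote almost all ribosomal protein genes stood slightly above WT. Of the 82 tested, 80 had a positive log2 fold change, against 49.9% of all genes tested, with a median of 0.19 (13.8%) where the median of all genes was 0.00. The pools of the 2 genotypes did not overlap, with the triple heterozygote higher, for 59 of the 82 genes, against 7.67% of all genes. Large-subunit genes (42 of 42 higher, median 0.19), small-subunit genes (30 of 30, median 0.19) and stalk genes (3 of 3, median 0.22) had like medians. No gene was called, against 0.0215% of all genes, and the smallest adjusted p was 0.326 (edgeR). At an unadjusted p under 0.05 edgeR had 39 of the 82, against 8.66% of all genes.

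The largest rises were in large-subunit genes. Rpl10a, which forms the L1 stalk beside the exit site of the ribosome, was at 161, 208 and 199 CPM in WT and 257, 369 and 257 in the triple heterozygote (log2 fold change 0.64, SE 0.15, edgeR adjusted p = 0.326). Rpl15 was at 415, 479 and 442 CPM in WT and 581, 607 and 549 in the triple heterozygote (0.38, SE 0.09, edgeR adjusted p = 0.326). All 3 triple heterozygote pools lay above all 3 WT pools for both genes. DESeq2 called these 2 and Rps26, against 0.201% of all genes, and edgeR without a filter on low counts called these 2, against 0.241%. With the copies added, the log2 fold change fell to 0.25 for Rpl10a and 0.20 for Rpl15. That fit was edgeR with its filter, where neither gene was called with or without copies. DESeq2 and edgeR without a filter were not run with copies added.

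Rpl27 was at 70.2, 95.1 and 86.6 CPM in WT and 99.4, 134 and 99.1 in the triple heterozygote, a log2 fold change of 0.41 that was 0.21 with copies added. Rpl28 was at 281, 351 and 373 CPM in WT and 387, 495 and 423 in the triple heterozygote (0.38, SE 0.12). Neither pair of groups overlapped, and neither gene was called. Rps26, a small-subunit protein at the exit of the messenger RNA channel, was at 268, 295 and 287 CPM in WT and 333, 373 and 336 in the triple heterozygote (0.29, SE 0.08), again apart. With copies added to the genes of the set, 67 of 82 were apart with the triple heterozygote higher, against 7.67% of all genes before copies were added. The median stayed at 0.19, and the highest value was 0.33.

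At the other end stood Rpl3l, Rpl7l1, Rps19bp1 and Rpl5, at log2 fold changes of -0.54, -0.01, 0.04 and 0.05. Rpl3l, the paralogue that replaces Rpl3 in mature striated muscle, was at 1.04, 1.43 and 1.07 CPM in WT and 0.817, 0.949 and 0.595 in the triple heterozygote, the only gene of the set that was apart and lower, against 9.19% of all genes. It rests on 5 to 23 counts a library (SE 0.43) and was not called. Among the proteins known to bind Mdm2, Rpl11 was at 213, 244 and 255 CPM in WT and 277, 374 and 268 in the triple heterozygote (0.37). With copies added Rpl11 was at 0.23. Rpl23 had a log2 fold change of 0.16, and Rpl5 overlapped between the groups. The 18 p53 targets listed for comparison had a median of 0.01, with 10 higher, 8 lower and none called.

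Erythroid markers differed between the same pools. All 11 tested were higher in the triple heterozygote (median log2 fold change 0.63), Hba-a1 and Hba-a2, the alpha globins, were called (edgeR adjusted p = 0.0351 and 0.0189), and the summed markers were at 7186 to 8404 CPM against 4416 to 5183 in WT. The liver markers Alb (-5.29) and Afp (-4.83) were lower in the triple heterozygote and not called (edgeR adjusted p = 0.326 for both). The part of these markers in the ribosomal protein result was not tested. Pools were also left out in turn. Without the second WT pool 81 of the 82 genes were higher with a median of 0.21. Without the second triple heterozygote pool, the deepest library, 76 of the 82 genes were higher with a median of 0.14 and 6 at an unadjusted p under 0.05, against 4.21% of all genes. Without the first WT pool these were 78, 0.15 and 5, against 3.4%.

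**Figure D3:**
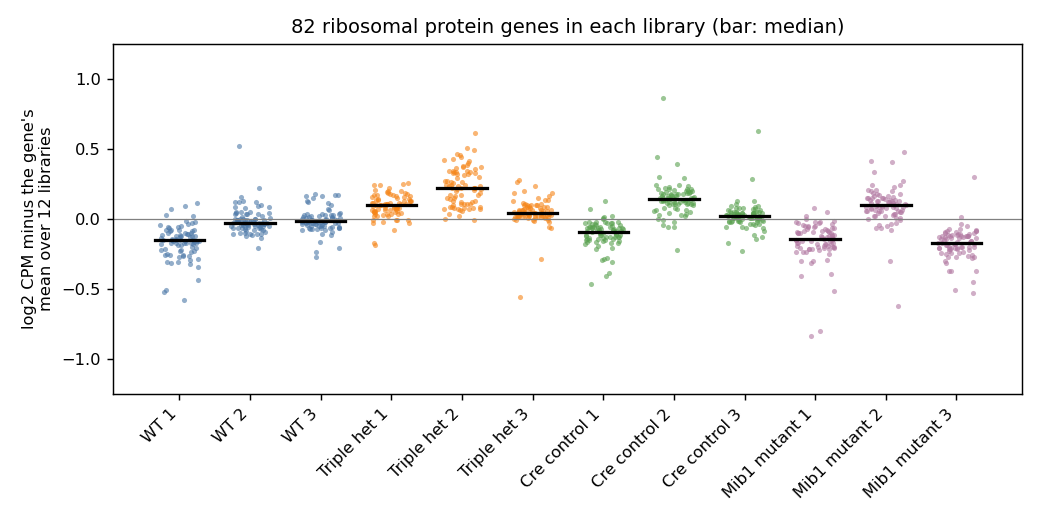
Each point is 1 of the 82 ribosomal protein genes in 1 pool, as its log2 CPM minus its mean over the 12 libraries, and the black bar is the median of the pool. The second triple heterozygote pool stands highest, and the first WT pool and mutant pools 1 and 3 lowest.

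In the Mib1 mutant the genes stood slightly below the Cre control. Of the 82, 77 had a negative log2 fold change, against 48.8% of all genes, with a median of -0.08 (-5.61%). The groups overlapped for most: 3 genes were apart and lower, against 7.75% of all genes, and none was apart and higher, against 8.86%. No gene was called, against 1.5% of all genes (edgeR, smallest adjusted p 0.16), and 4 had an unadjusted p under 0.05, against 14% of all genes. DESeq2 called 0 as well, against 2.99%. With the replicate number as a block, 1 gene was called, Rpl29, against 2.28% of all genes.

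Rpl29, a small protein on the surface of the large subunit, was at 243, 285 and 271 CPM in Cre control pools and 203, 241 and 210 in the mutant (log2 fold change -0.29, SE 0.10; edgeR adjusted p = 0.16, and 0.0421 with the block). Gm13841, a processed copy of Rpl29 with 99.4% identity, was at 0 CPM in every Cre control pool and 26.3, 22.9 and 18.4 in the mutant. Of 43 copies tested only Gm13841 was called here (edgeR adjusted p = 5.36e-06). With copies added Rpl29 was at 243.5, 284.7 and 271.8 CPM against 230, 264.3 and 228.9, with overlap. The block was not run with copies added. Without copies the groups of Rpl29 did not overlap, nor did those of Rpl35a (-0.21) and of Rplp0 (-0.11), the anchor of the stalk. Rplp0 was at 1063, 1142 and 1110 CPM in Cre control pools and 1027, 1020 and 1015 in the mutant. Rps2 was at 312, 342 and 262 CPM in Cre control pools and 173, 295 and 216 in the mutant (-0.42, SE 0.15, edgeR adjusted p = 0.188), with overlap. Adding its copies moved Rps2 to -0.10. Rps18, a protein of the head of the small subunit, was at 348, 421 and 340 CPM against 280, 378 and 272 (-0.25), with overlap.

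Rpl3l had the largest fall in the mutant, from 0.676, 1.86 and 1.56 CPM to 0.475, 0.559 and 1.21 (-0.86, SE 0.44), with overlap. The highest values were those of Rps7 (0.13), Rpl3 (0.11), Rpl27 (0.09) and Rpl10a (0.06), and all 4 were negative with copies added (-0.11, -0.06, -0.07 and -0.04). With copies added all 82 genes were below 0 and the median was -0.10. Of the 82, 4 were then apart and lower (Rpl3, Rpl5, Rplp0 and Rpsa), against 7.75% of all genes before copies were added. Rpl29 and Rpl35a, apart without copies, overlapped with them. Of the leukocyte markers C1qb (-0.61) and Lyz2 (-1.02) were called in this comparison, and all 6 tested were lower (median -0.59). The summed cardiomyocyte markers were at 51404 to 57168 CPM in the Cre control and 41773 to 51381 in the mutant, with 10 of 12 lower (median -0.19). All 9 fibroblast and epicardial markers were higher in the mutant (median 0.22, 3 at an unadjusted p under 0.05, none called), and their sum was 4335 to 4392 CPM in the Cre control and 4758 to 5860 in the mutant. The part of these cell types in the result was not tested.

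The second mutant pool decided much of this comparison. Without it the median was -0.17 and Rps18, Rpl12 and Rps2 were called, against 2.93% of all genes, while without the second Cre control pool the median was -0.03 with 55 genes lower, and without mutant pool 3 it was -0.03 with 57 lower. Without both pools of 1 sex, 76 genes were lower with a median of -0.12 and none called.

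The difference between the 2 genotype effects (the mutant effect minus the triple heterozygote effect) was tested in the same model. It was negative for 81 of the 82 genes, against 50.3% of all genes, with a median of -0.29. No gene was called, against 0.516% of all genes (edgeR, smallest adjusted p 0.0773, Rpl15), and 41 had an unadjusted p under 0.05, against 13.8% of all genes. Rpl15 had a difference of -0.54 (SE 0.12), which was -0.32 with its copies added, and Rps2 one of -0.59 (SE 0.21), which was -0.27. The 1 gene above 0 was Rpl3 (0.04), at -0.13 with copies added. DESeq2 called Rpl15, Rpl35a and Rps26, against 1.2% of all genes, and the replicate block called Rpl15 and Rps15, against 0.781%. All 11 erythroid markers were lower in this difference too, and 5 of them were called.

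**Figure D4:**
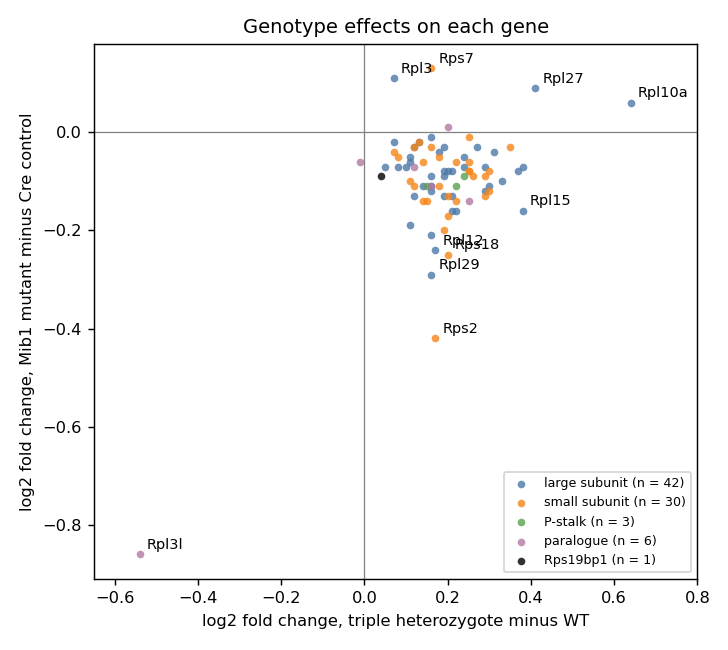
Log2 fold change of each of the 82 genes in the triple heterozygote against WT (horizontal) and in the Mib1 mutant relative to its Cre control (vertical), coloured by class. Of the points 80 lie right of 0, all but Rpl3l and Rpl7l1, and 77 lie below 0, with Rpl10a farthest right and Rpl3l lowest.

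The control groups also differed, and the Cre control enters the mutant comparison as well as this one. The Cre control had both Cre and a floxed allele and WT had neither, so their parts cannot be told apart. Against WT the Cre control was higher for 67 of the 82 genes, against 49.6% of all genes, with a median of 0.09. The groups were apart with the Cre control higher for 6 genes, against 8.9% of all genes, and lower for 2, Rpsa and Rpl9, against 10.2%. With copies added 10 genes were apart and higher and 1, Rpl9, lower, against the same shares of all genes before copies were added. Rpsa was then apart and higher, at 885 to 977 CPM in WT and 1000 to 1043 in the Cre control. No gene was called, against 0.279% of all genes (edgeR, smallest adjusted p 0.165), and 3 had an unadjusted p under 0.05, against 8.43% of all genes. DESeq2 and the replicate block each called Rpl15, against 0.587% and 0.423% of all genes.

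Rpl10a, at 161 to 208 CPM in WT and 231 to 264 in the Cre control, had a log2 fold change of 0.36 (SE 0.15). Rpl15, at 415 to 479 CPM in WT and 533 to 616 in the Cre control, had one of 0.34 (SE 0.09). Both were apart, and with copies added they were at 0.11 and 0.17. Rpl27 (0.29) and Rpl12 (0.27), which sits at the base of the stalk, overlapped, as did Rpl7l1 (-0.08). Without the second Cre control pool the median was 0.03 and without the first WT pool 0.04.

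The genes moved together from pool to pool within genotypes. After group means were taken out, the mean pairwise correlation of the 82 genes over the 12 libraries was 0.694, against 0.00045 for all genes tested, 0.0275 for 1898 genes of similar CPM and 0.191 for the 1221 shortest genes. The points share libraries, depth and scaling, so this is a description. In the second mutant pool 79 of the 82 genes lay above their group mean, and in the second Cre control pool 77 did. In the first WT pool 1 did. The median SD of a gene was 0.129 on the log2 scale, 0.073 once the mean of the set in each library was taken out, and 0.0571 with copies added.

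The 4 genes with the largest remaining SD were Rpl3l (0.46), Rps12 (0.23), Rpl12 (0.19) and Rpl27 (0.18). With copies added the value was 0.46 for Rpl3l, which had no counts in copies, and fell to 0.05, 0.05 and 0.03 for the others. Rps12, a small-subunit protein of the beak, was at 84.4 to 114 CPM in WT, 99.4 to 136 in the triple heterozygote, 101 to 128 in the Cre control and 72.9 to 140 in the mutant, and 72.4% of its joint count lay in copies.

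Ribosomal protein messages are short, and fold changes in these libraries followed gene length. Length here counts all annotated exonic bases of a gene, which can far exceed its main transcript. Rps15a, for example, had 6270 exonic bases and a main transcript of 640. The trend below may therefore treat some genes of the set as longer than their messages. Among genes outside the set, the 1221 shortest (up to 1773 exonic bases) had median log2 fold changes of 0.10 in the triple heterozygote against WT, 0.07 in the Cre control against WT and -0.10 between the Mib1 mutant and its Cre control. The 3050 longest had medians of -0.09, -0.06 and 0.06. The 1898 genes of similar CPM had medians of -0.04, -0.04 and 0.01. With a trend on length taken out of each library, the medians of the ribosomal protein genes were 0.11 with 75 of 82 higher, 0.05 with 58 higher, and -0.02 with 49 lower, and that of the difference between the genotype effects was -0.14 with 73 lower. In this fit 26 genes of the triple heterozygote comparison had an unadjusted p under 0.05, against 7.93% of all genes, and none was called. What made fold changes follow length was not tested.

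**Figure D5:**
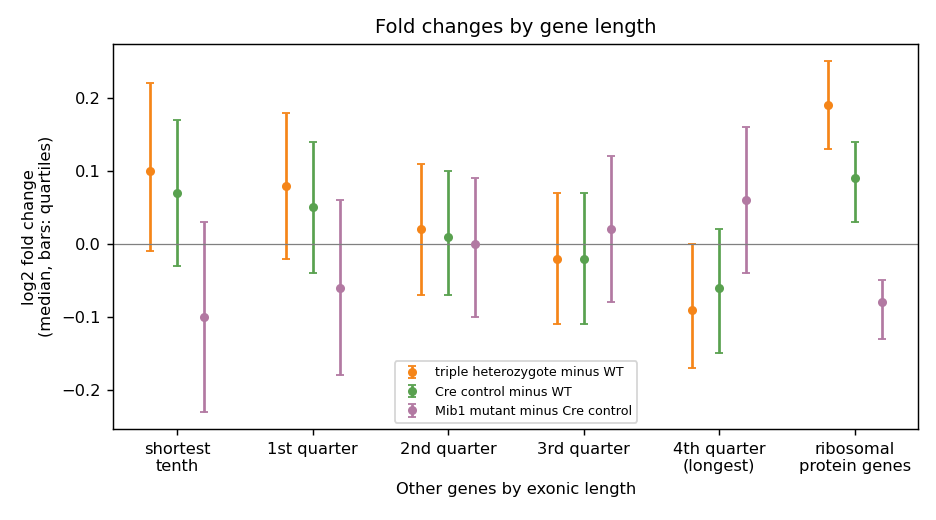
Median log2 fold change (points) with quartiles (bars) for genes outside the set by exonic length and, at the right, for the 82 ribosomal protein genes, in 3 comparisons. The shortest genes lie on the same side of 0 as the ribosomal protein genes in each comparison, and the ribosomal protein genes lie farther from 0 than the shortest genes only in the comparisons with WT.

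The paralogues were set against their partners as a ratio of CPM within a library. Rpl3l reached 0.0761% to 0.304% of Rpl3, Rpl7l1 10.7% to 13.6% of Rpl7, Rpl22l1 24.8% to 35.1% of Rpl22 and Rpl36al 54.3% to 63.6% of Rpl36a. Rpl22l1 can take the place of Rpl22, and was at 67.6 to 76.0 CPM in WT and 77.6 to 91.8 in the triple heterozygote, apart (log2 fold change 0.25), and at -0.14 in the mutant. Its ratio to Rpl22 overlapped between WT (27.7% to 29.1%) and the triple heterozygote (28.1% to 34.0%), as did that of Rpl36al to Rpl36a. The ratio of Rpl7l1 to Rpl7 was apart, at 12.88% to 13.14% in WT and 10.97% to 12.15% in the triple heterozygote. That of Rpl3l to Rpl3 was apart too (0.1373% to 0.1845% and 0.0761% to 0.1143%), on 5 to 23 counts of Rpl3l a library. The ratios were not tested. Rps27l, a p53 target, was at 24.0% to 30.9% of Rps27rt, with overlap between WT and the triple heterozygote. Rpl36al and Rps27l had log2 fold changes of 0.20 and 0.16 in the triple heterozygote and 0.01 and -0.11 in the mutant.

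Rpl39l, the testis paralogue of Rpl39, had 0 to 8 counts a library, and Rpl10l, the testis paralogue of Rpl10, had 0 in all. Rps27 was listed at 0 in every library too, and its counts cannot be told apart from those of Rps27rt, a retrogene in which all 196 stretches of 60 coding bases of Rps27 occur. Rps27rt stood at 253 to 272 CPM in WT, 278 to 297 in the triple heterozygote, 241 to 298 in the Cre control and 224 to 294 in the mutant. A paralogue of Rps4x, Rps4l, was not analysed here.

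The X chromosome carries 4 of the tested genes, Rpl10, Rpl36a, Rpl39 and Rps4x. They were at log2 fold changes of 0.16, 0.18, 0.11 and 0.07 in the triple heterozygote, with the groups apart and higher for all but Rpl39. Rps4x was at 853, 883 and 918 CPM in Cre control pools and 870, 886 and 824 in the mutant, and the first pool of each, that of 1 sex, was the lowest of the Cre control and between the others in the mutant. The 4 overlapped between the Cre control and the mutant.

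Other parts of the translation machinery were taken from lists. Of 22 translation factors 19 were higher in the triple heterozygote, with a median of 0.05, and 13 lower in the mutant, with a median of -0.04. Of 42 ribosome assembly genes 29 were higher (0.05) and 29 lower (-0.05), and of 13 RNA polymerase I genes 7 were higher (0.06) and 7 lower (-0.01). The 8 snoRNA host genes had medians of 0.15 and -0.10, and 17 growth regulators of the mTOR and Myc pathways -0.01 and -0.05. No gene of these lists was called in any of the 4 comparisons.

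Start sites were read from RefSeq promoters (GRCm38.p6), which matched 66 of the 86 genes. A run of at least 5 C or T that begins with C on the annotated start base was found in 14 of them (21.2%), against 3.01% of 27025 genes in that table. Runs that begin upstream of that base, as in the windows of Rpl7a and Rpl27a, were not counted. The share therefore depends on where the start is annotated, and genes without a run by this rule may still have the motif. The letters GGAA or TTCC lay within 100 bases upstream in 92.4%, against 70.1%, CCGGAA or TTCCGG, which contain them, in 27.3%, against 8.36%, and TATAA, on either strand, within 50 bases upstream in 7.58%, against 7.5%. Among 16456 protein-coding genes outside the set, the run was found in 2.64% and GGAA or TTCC in 69.1%. CCGGAA or TTCCGG was found in 11% of these and TATAA in 7.64%. The windows below, 15 bases on each side of the start and read on the strand of the gene, are shown for 4 genes with a run, which capitals mark, and for Rpl10a, the gene with the largest rise, whose window has none.
Rpl15: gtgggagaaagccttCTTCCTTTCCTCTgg
Rpl28: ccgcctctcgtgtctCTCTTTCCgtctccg
Rps18: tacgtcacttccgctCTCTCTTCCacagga
Rps6: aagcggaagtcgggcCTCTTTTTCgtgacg
Rpl10a: gctctatttgagcgcatgcgcaaagcgctc

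The 4 windows with a run lie at chr14:18270972-18271001 (minus strand), chr7:4792950-4792979 (plus), chr17:33955651-33955680 (minus) and chr4:86857353-86857382 (minus), and that of Rpl10a at chr17:28328550-28328579 (plus), where RefSeq also lists a second start upstream. The 13 tested genes with a run by this rule had a median log2 fold change of 0.24 (0.11 to 0.38) in the triple heterozygote. The 49 without one by this rule had 0.18 (-0.54 to 0.64). In the mutant the medians were -0.07 and -0.08, and in the Cre control against WT 0.09 and 0.09. The ranges of the 2 sets overlapped in each comparison.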

How the data were processed

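Per the labels' protocols, polyA RNA was made into directional libraries and read once for 60 bases. Among the tools in the submitters' processing notes are RSEM, cutadapt, limma and bcl2fastq 2.20.0.422, beside the build GRCm38; neither aligner nor annotation is named (not given in the sources used here). What the authors deposited is a table of expected counts per Ensembl gene from RSEM, with no scaling for depth. Columns were matched to samples by name; those called mutant were taken as the triple heterozygote because their names hold neither flox nor Cre, an inference. All 12 were used, and 0 were left out. Of 38293 identifiers, 36429 were in GENCODE M21, which gave symbols, positions and lengths, and 15719 genes had no count. For levels per length, the length of a gene was that of its shortest complete transcript of the best APPRIS class, a choice made after its values were seen. The length groups and the length trend used all annotated exonic bases of a gene instead.

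The members, the lists and the tests were chosen with earlier results of these data known. After rounding, the expected counts went into edgeR 4.0.16 (R 4.3.3; TMM scaling, filterByExpr, quasi-likelihood F test, two-sided, Benjamini-Hochberg over 13964 genes) in 1 model of all 12 libraries and 4 groups, leaving 8 residual degrees of freedom; the common coefficient of biological variation was 0.0982. The SE is the log2 fold change divided by the square root of F. The procedure was tested on simulated counts. Chi-square per degree of freedom between replicates was 2.07 to 14.1, above sampling noise, and none was counted as a duplicate. 1 count is worth 0.0452 to 0.0991 CPM.

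Deviations from group means of same-numbered pools correlated at 0.244, 0.526 and 0.131 between the Cre control and the Mib1 mutant. There the numbers were taken to pair the pools, and blocked values stand beside the result. Differently numbered pools of these groups correlated at -0.458 to 0.305, so the pairing is an assumption. Blocked calls rest on it. Same-numbered pools of the triple heterozygote and WT correlated at 0.109, 0.0486 and -0.291, and those of the Cre control and WT at 0.14, 0.224 and -0.111.

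Genes named are the paralogues, the 5 highest and 5 lowest levels per length, the 4 largest rises and falls of each comparison, the 4 with the largest SD left after the library mean, those on the X chromosome and those that bind Mdm2. Rps26, Rps15, Rps6, Rpl35a, Rplp0, Rpl9 and the processed copies were chosen after their values were seen. Alternatives were median-ratio size factors, scaling without the members, no filter, a mean of at least 2 CPM, limma-voom (3.58.1), DESeq2 1.42.0, the replicate number as a block, a fit of the compared libraries alone, the sex mix of pools as a covariate, a trend on length in the offsets, named pseudogenes added to their gene and each pool left out. Sequence-matched copies added to their gene and both pools of 1 sex left out were chosen after the data were seen. A list of ribosomal proteins outside the symbol rule is not reported here.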

Additional observations from a re-analysis of the deposited data

Results flagged for a closer look

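The triple heterozygote and Mib1 mutant effects differed by edgeR's test of the difference (mutant effect minus triple heterozygote effect, adjusted over all genes) for 5 erythroid markers, 1 leukocyte marker and 1 processed copy. The log2 differences were -0.93 for Hba-a1, -1.03 for Hba-a2, -0.76 for Hbb-bs, -0.87 for Hbb-bt and -0.90 for Alas2, the enzyme that starts haem synthesis in red cells. Lyz2, the lysozyme of macrophages, had a difference of -1.20. For Rpl15-ps3 the adjusted p was 0.0148, and since several libraries were at 0 no fold is given.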

How the results depend on the processing

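No ribosomal protein gene was called in any comparison by edgeR, and the counts under other settings were as follows. Without a filter on low counts 1 was called in the Mib1 mutant comparison, 2 in the triple heterozygote comparison, 1 between the Cre control and WT, and 4 in the difference between the genotype effects, where over all 22361 genes it called 476, 54, 144 and 246. DESeq2 called 3 in the triple heterozygote comparison, 1 between the controls and 3 in the difference, and over all 13964 genes 28, 82 and 167. The replicate block called 1 in the mutant comparison, 1 between the controls and 2 in the difference, where over all genes it called 318, 59 and 109, and changed no other call. A trend on length called 1 in the difference (80 over all genes), with a median of -0.14 in place of -0.29. With each pool left out in turn 0 to 3 were called in the mutant comparison and 0 to 6 in the difference, above 0 only without the second mutant pool, where 415 and 233 were called over all genes. The median over the set kept its sign in all 4 comparisons under every setting run.

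Some single genes changed sign. With named pseudogenes or with sequence-matched copies added, the mutant value was -0.04 for Rpl10a and -0.06 for Rpl3, the Cre control value against WT was 0.06 for Rpl3, 0.12 for Rpsa and 0.15 for Rps2, and the difference was -0.13 for Rpl3; sequence-matched copies also turned Rpl27 to -0.07 and Rps7 to -0.11 in the mutant. Without the pools of 1 sex Rps7 was at -0.01 and Rpl7l1 at 0.03 in the mutant, Rpl7l1 at 0.01 in the triple heterozygote, and Rpl3 at -0.04 in the difference. Rpl7l1 in the triple heterozygote was also at 0.01 without a filter, with a mean of at least 2 CPM and with only the libraries compared. The length trend gave 0.02 for Rps27l in the mutant, and -0.07 for Rps19bp1 and -0.01 for Rps4x in the triple heterozygote. With each pool left out in turn, mutant values ran from -0.08 to 0.16 for Rpl10a, -0.12 to 0.30 for Rpl27, -0.02 to 0.27 for Rpl3 and -0.11 to 0.01 for Rpl7l1, triple heterozygote values from -0.05 to 0.02 for Rpl7l1, -0.14 to 0.18 for Rps19bp1 and -0.01 to 0.11 for Rpl5, and the difference from -0.08 to 0.20 for Rpl3. For the settings other than added copies, the cause was not tested.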
